A study of Mus musculus with 4 samples.

Results

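Mature migratory dendritic cells of the tumour and of its draining lymph node are described here, in mice given NanoCa or mock-treated. Dendritic cells are the antigen-presenting cells that prime T cells, and the mature migratory state carries Ccr7, the chemokine receptor that guides them to lymph nodes, and Fscn1 (fascin), the actin-bundling protein of their processes. Cells were chosen on UMI counts. A barcode was a member if it had at least 1 UMI each of Ccr7 and Fscn1, at least 10 UMIs of Cd74, the invariant chain of MHC class II, and few or no UMIs of T-cell, B-cell, macrophage and Rhox5 genes. In all, 164 of 41777 kept barcodes met the rule, 27 in the tumour and 137 in the tumour-draining lymph node (TDLN), and they are called mature DC below.

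The tissues came from female mice aged 4 to 8 weeks with tumours of CT26, a colon carcinoma line, and each of the 4 groups was 1 library. They pair each tissue with each treatment: tumour with NanoCa, tumour with mock, TDLN with NanoCa, TDLN with mock. NanoCa, going by the series title, is a calcium-containing lipid nanoparticle meant for immunotherapy through interferon beta. For the mock libraries the treatment tag says that none was given, but their protocol text lists NanoCa. The tag was followed here, and the ratios of NanoCa to mock hold only if it is right. Cells were stained for CD45, the pan-leukocyte antigen, sorted, and made into 10x Genomics libraries (3' chemistry, v2). The sources used here do not say how many mice went into a library or which gate was sorted.

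As background, a dendritic cell that matures loses much of its uptake machinery, gains costimulatory molecules such as Cd40, Cd80 and Cd86, and leaves the tissue through lymph vessels along a gradient of Ccr7 ligands. The change is driven largely by NF-kB factors. It comes with chemokines such as Ccl22, Ccl17 and Ccl5, the interleukin-12 subunit Il12b, and restraining molecules such as Cd274 (PD-L1) and Pdcd1lg2 (PD-L2). Synthesis of MHC class II is shut down late in maturation while complexes already made stay on the surface, so transcripts of class II genes and of Cd74 are low in fully mature cells.

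With 1 library per group no test was possible and no p-value is given. A level is given as CPM, for which the UMIs of all mature DC in a library were summed and a gene's part set against that total, with exact Poisson 95% intervals. Ratios are log2 values with exact conditional binomial 95% intervals, and shares of cells carry exact Clopper-Pearson 95% intervals. All intervals cover counting error alone, not the spread between mice. A gene passed the rule in a comparison if it had at least 50 UMIs over both libraries, differed at least 2-fold and had an interval that excluded a ratio of 1. The word "passed" means no more than that.

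The 4 libraries had 9404 to 11287 deposited barcodes and 74909974 to 167924801 UMIs. The mature DC themselves held 134405 UMIs in the tumour with NanoCa and 40696 with mock, and in TDLN 735305 with NanoCa and 741087 with mock. Their median depth was 5929 and 4196.5 UMIs per cell in tumour NanoCa and tumour mock, against 10416 and 10188.5 in TDLN NanoCa and TDLN mock. The 2 deepest cells held 34.2% of the UMIs of the tumour NanoCa mature DC and 42.7% of those of tumour mock, so tumour sums lean on few cells. In TDLN the same shares were 5.10% (NanoCa) and 7.42% (mock). Each pair of libraries shared 121 to 183 barcode sequences. No barcode was a mature DC in both libraries of a pair, and 4 mature DC had a barcode that another library also held.

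Ccl22, a T-cell attracting chemokine of mature dendritic cells that the rule did not use, was checked first. It stood at 699 CPM (565 to 856) in tumour NanoCa, 639 CPM (417 to 936) in tumour mock, 820 CPM (756 to 888) in TDLN NanoCa and 1139 CPM in TDLN mock. In Ccr7-negative conventional-type dendritic cells, gated by Flt3 and Cd74 with no Ccr7 or Fscn1 (12 to 17 cells per library), it stood between 8.36 and 16.5 CPM. At least 1 Ccl22 UMI was found in 11 of 19, 5 of 8, 55 of 69 and 50 of 68 mature DC of the same 4 libraries in that order, thus in most cells but not in all. After thinning each cell to 2000 UMIs the share with Ccl22 was 61.1% in tumour NanoCa, 50% in tumour mock, 45.6% in TDLN NanoCa and 53.7% in TDLN mock. T cells, which should lack Ccl22 and serve here as the background from free RNA, gave 0% (upper bound 1.24%), 0% (upper bound 0.700%), 0.229% and 0.343% after thinning and at most 0.654% before it, at median depths of 2185 to 4445 UMIs. The unthinned shares in mature DC were 57.9%, 62.5%, 79.7% and 73.5%.

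Other genes of the mature programme stood apart from the conventional-type cells in the same way, as a description, since the gate chose both sets. Il4i1, a secreted amino-acid oxidase, was between 197 and 661 CPM in mature DC of the 4 libraries and at 0 CPM in all 4 sets of conventional-type cells. Cd40, the receptor for T-cell help, was between 498 and 663 CPM in mature DC, against 22.6 to 70.2 CPM in conventional-type cells. Marcksl1, an actin regulator, was between 835 and 2950 CPM, against 49.4 to 180 CPM. H2-Ab1, a chain of MHC class II, ran the other way, at 885 to 2775 CPM in mature DC, against 8233 to 11728 CPM in conventional-type cells. The summed profile thus carried the markers that the label names.

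Mature DC made up 0.169% of kept barcodes in tumour NanoCa (19 of 11215, interval 0.102 to 0.264), 0.0862% in tumour mock (8 of 9281, 0.0372 to 0.170), 0.627% in TDLN NanoCa (69 of 11013, 0.488 to 0.792) and 0.662% in TDLN mock (68 of 10268, 0.515 to 0.839). The NanoCa to mock ratio of shares was 0.97 in the tumour (log2, -0.28 to 2.38) and -0.08 in TDLN (-0.58 to 0.42). Both intervals include a ratio of 1, and at this depth neither share differed detectably between NanoCa and mock. The tumour share is set in part by how many other barcodes a library holds. Among barcodes with a UMI of Ptprc (the gene of CD45) and at most 3 Rhox5 UMIs, mature DC were 0.914% in tumour NanoCa (0.551 to 1.42) and 0.383% in tumour mock (0.165 to 0.752), against 0.727% in TDLN NanoCa (0.566 to 0.920) and 0.891% in TDLN mock (0.693 to 1.13). On that base all 4 intervals overlap. The sorting gate is not known, and its part in these shares was not tested.

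**Figure D1:**
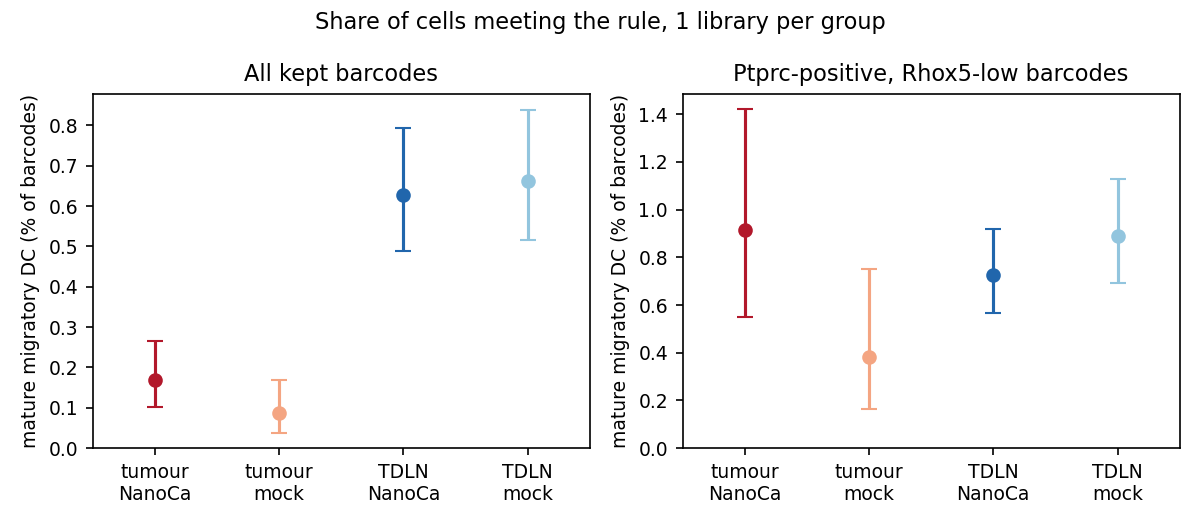
Mature DC as a percent of all kept barcodes (left) and of Ptprc-positive, Rhox5-low barcodes (right) in the 4 libraries, with exact 95% intervals for counting error. On the left both TDLN libraries lie above both tumour libraries, and on the right tumour NanoCa (0.914%) is the highest and tumour mock (0.383%) the lowest.

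The Cd74 limit ran through the Ccr7- and Fscn1-positive cells rather than around them. Barcodes that failed the rule only by having fewer than 10 Cd74 UMIs numbered 50 in tumour NanoCa, 24 in tumour mock, 67 in TDLN NanoCa and 68 in TDLN mock, about as many again as the members in TDLN. In TDLN these left-out barcodes had 943 CPM Ccl22 and 3238 CPM Ccr7 (NanoCa) and 1078 CPM Ccl22 and 4609 CPM Ccr7 (mock). The TDLN members had 820 CPM Ccl22 and 5044 CPM Ccr7 (NanoCa) and 1139 CPM Ccl22 and 5160 CPM Ccr7 (mock). Ccl22 was found in 37.3% and 47.1% of the left-out barcodes, at median depths of 4031 and 6318 UMIs, and in 79.7% and 73.5% of the members, at 10416 and 10189 UMIs. In the tumour they had 250 CPM Ccl22 and 650 CPM Ccr7 (NanoCa) and 103 CPM Ccl22 and 717 CPM Ccr7 (mock), well under the members. Just inside the limit, with 10 to 14 Cd74 UMIs, were 3 cells in tumour NanoCa, 2 in tumour mock, 12 in TDLN NanoCa and 15 in TDLN mock. Just outside it, 11, 1, 19 and 20 barcodes had 5 to 9. With no Cd74 minimum there were 69, 32, 136 and 136 cells, and the tumour ratio of shares became 0.84 (0.21 to 1.49). With a minimum of 5 it became 1.46 (0.35 to 2.72), and these were the only settings tried at which its interval left out a ratio of 1.

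The mature DC were not uniform. Ccl5, a chemokine for effector T cells, ran from 0 to 1788 UMIs per cell with a median of 184 in TDLN NanoCa, and from 0 to 1462 with a median of 244.5 in TDLN mock. The tumour medians were 26 UMIs (0 to 153) in NanoCa and 22.5 (0 to 154) in mock. Cells with at least 50 Ccl5 UMIs numbered 7 of 19 in tumour NanoCa, 2 of 8 in tumour mock, 51 of 69 in TDLN NanoCa and 57 of 68 in TDLN mock. Cells with at most 3 numbered 7, 3, 14 and 6. These Ccl5 classes were chosen after the values were seen, and their values are a description.

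**Figure D2:**
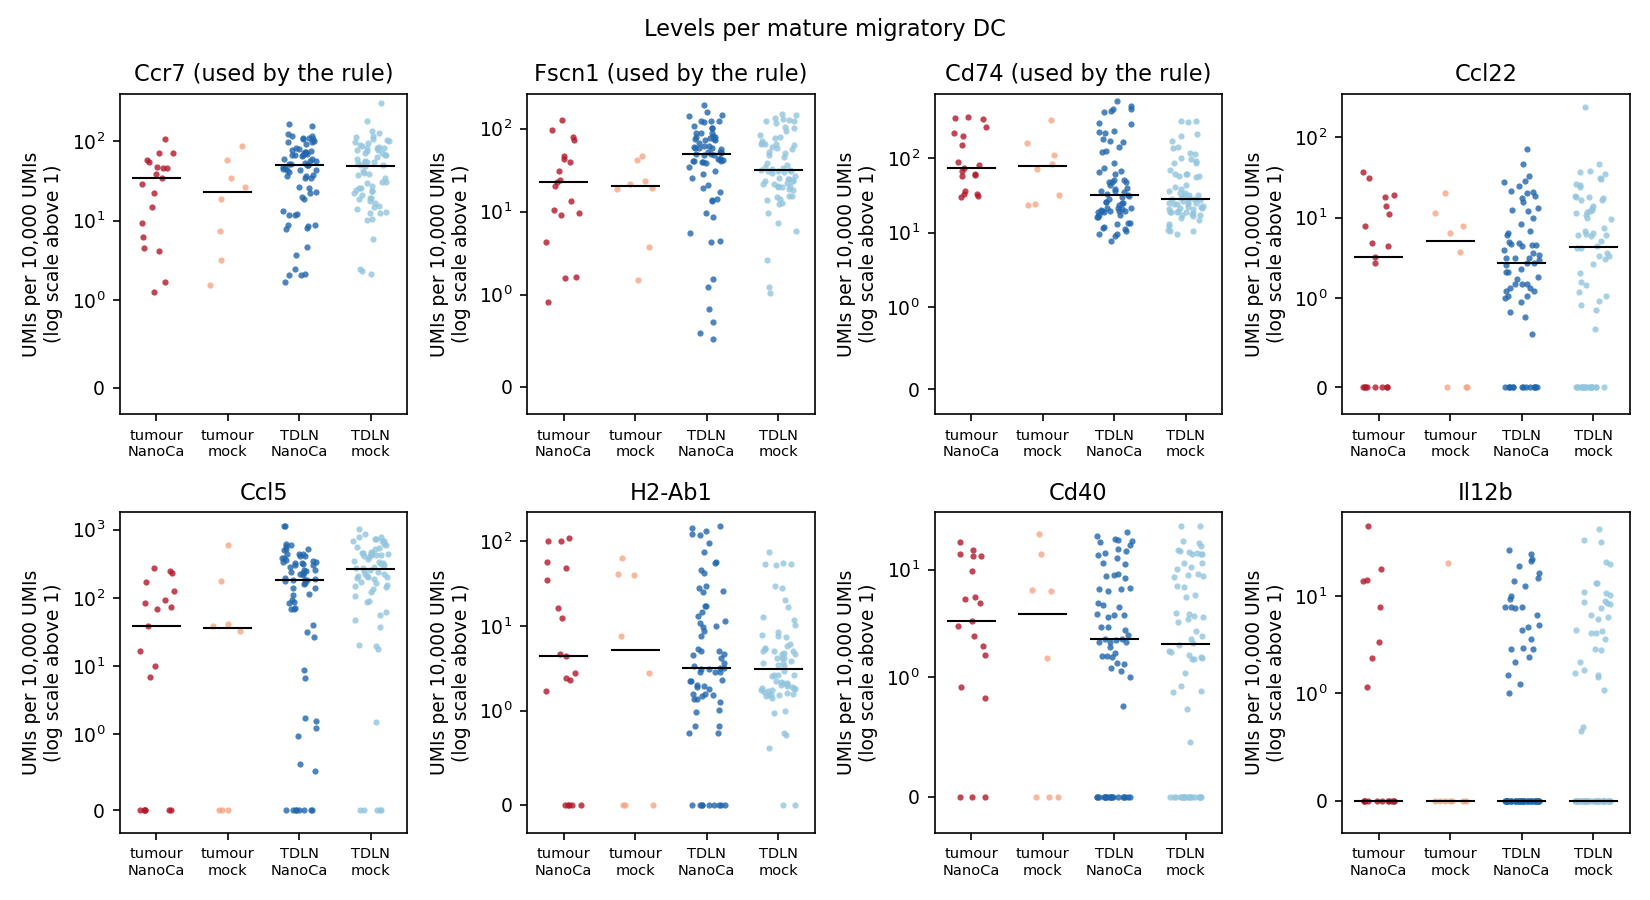
UMIs of a gene per 10000 UMIs of the cell in each mature DC of the 4 libraries (symmetric log scale, logarithmic above 1) for selected genes; each point is 1 cell and each black bar the median of a library. Ccl5 spans the axis from 0 upwards in all 4 libraries, and the TDLN medians lie above the tumour medians.

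Cells low in Ccl5 were rich in Cd74 message. In TDLN NanoCa, Cd74 stood at 32081 CPM in the 14 cells with at most 3 Ccl5 UMIs and at 3487 CPM in the 51 cells with at least 50. In TDLN mock the same values were 21754 CPM in 6 cells and 4880 CPM in 57 cells. Fscn1 ran the other way in both, at 2009 CPM in Ccl5-low and 6748 CPM in Ccl5-high cells of TDLN NanoCa, and at 2904 and 5352 CPM in those of TDLN mock. Across cells the rank correlation of Ccl5 with Cd74 was -0.65 in TDLN NanoCa (69 cells) and -0.62 in TDLN mock (68 cells), cells that share a library and differ in depth, with Cd74 cut off at 10 by the rule. Few cells carried much of the Cd74 sum: those with at least 100 Cd74 UMIs numbered 16 of 69 in TDLN NanoCa and 15 of 68 in TDLN mock and held 80.6% and 68.9% of the Cd74 UMIs of their library.

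The 7 Ccl5-low cells of tumour NanoCa also differed from its 7 Ccl5-high cells. They had 245 CPM Ccl22, 101 CPM Cd40, 419 CPM Fscn1 and 101 CPM Tmem123, a membrane mucin high in mature dendritic cells. The Ccl5-high cells had 1599 CPM Ccl22, 948 CPM Cd40, 5365 CPM Fscn1 and 2249 CPM Tmem123. The 5 cells between them, with 4 to 49 Ccl5 UMIs, had 638 CPM Ccl22, 886 CPM Cd40, 4184 CPM Fscn1 and 1879 CPM Tmem123, and more Il4i1 (1170 CPM) than the Ccl5-high cells (434 CPM). Of these 3 classes the Ccl5-low one was the lowest for all 5 genes. The members with fewer than 5 UMIs of Ccr7 or of Fscn1 numbered 9 in tumour NanoCa, 3 in tumour mock, 10 in TDLN NanoCa and 4 in TDLN mock. They held 6, 0, 11 and 0 Ccl22 UMIs, against 88, 26, 592 and 844 in the others. These low-count cells made up 9 of 19 members in tumour NanoCa and 3 of 8 in tumour mock, a large part of the tumour cells. For them the name mature DC rests on the rule more than on Ccl22.

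**Figure D3:**
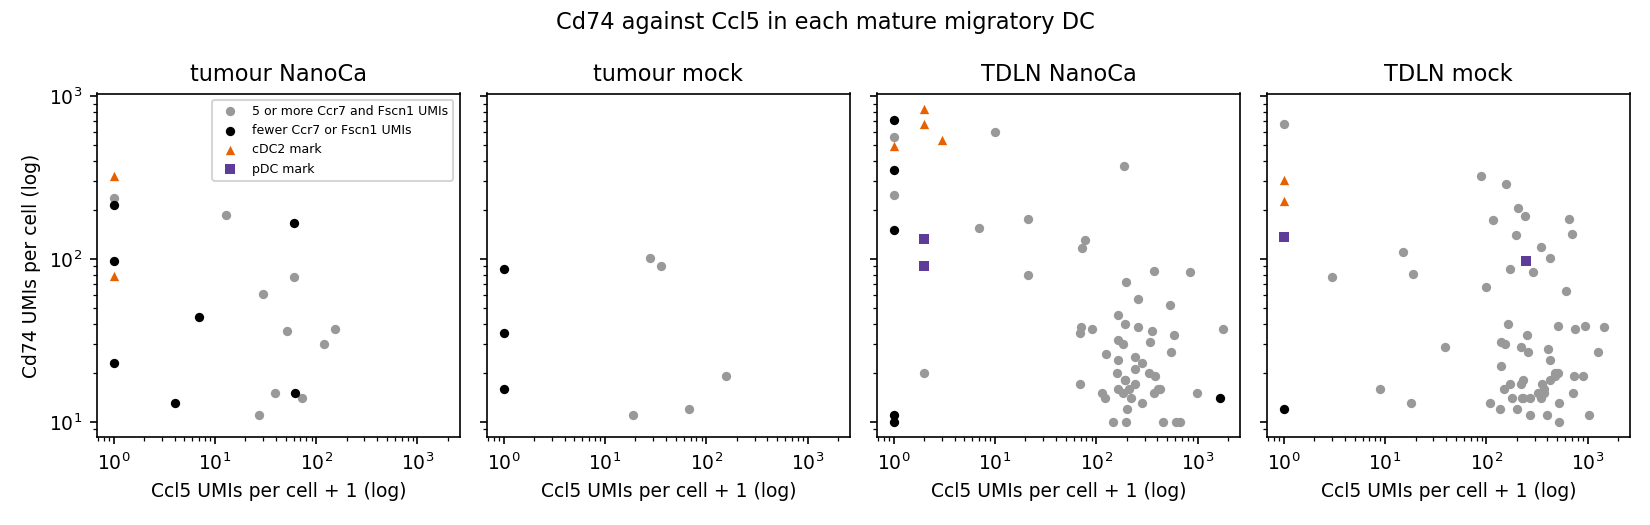
Ccl5 against Cd74 UMIs in each mature DC, 1 panel per library, with cells carrying cDC2 or plasmacytoid DC marks set apart (a triangle marks cells with both). Most TDLN cells form a group with many Ccl5 and few Cd74 UMIs, and the cells with the subset marks lie mostly at high Cd74.

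Marks of dendritic cell subsets fell on a minority of the cells, and some cells bore more than 1 mark. The cDC2 mark, at least 5 UMIs of Mgl2, Cd209a and Clec10a together (lectins of type 2 conventional dendritic cells), was on 2 tumour NanoCa cells, 4 TDLN NanoCa cells and 2 TDLN mock cells, and on none in tumour mock. The 2 in tumour NanoCa were the 2 deepest cells of that library, which held 34.2% of its mature DC UMIs. They had 2 and 4 Fscn1 UMIs, and 0 Ccl5 and 0 Ccl22 UMIs. The 4 in TDLN NanoCa had 496 to 833 Cd74, 1 to 9 Fscn1 and 0 to 2 Ccl5 UMIs. The mark of plasmacytoid DC, the type specialised in interferon production, was at least 5 Siglech UMIs, and it was on 0, 0, 2 and 4 cells, among them both cDC2-marked cells of TDLN mock. The cDC1 mark (at least 2 UMIs of Xcr1, Clec9a and Cadm1, genes of the cross-presenting subset) was on 2, 0, 6 and 15 cells. It was also on all 4 plasmacytoid-marked cells of TDLN mock, with 3 to 11 Cadm1 UMIs, and on 1 of TDLN NanoCa, with 7.

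The Cd207 and Epcam mark of Langerhans cells, the dendritic cells of the epidermis, was found in TDLN alone among the 4 libraries by the count used. At least 2 UMIs of Cd207 (langerin) and Epcam together were on none of the 19 and 8 tumour cells (NanoCa and mock), against 10 of 69 cells in TDLN NanoCa and 6 of 68 in TDLN mock. The difference between tissues was not tested. The wider Langerhans list of 6 genes did not all go with this mark. Within NanoCa its gene Il1r2 passed as higher in the tumour, with 28 of the 30 UMIs of the list there, and Ltc4s passed as lower. The 10 cells of TDLN NanoCa were Ccl5-high, with 121 to 1788 Ccl5 UMIs and a median of 226, and had a median of 44 Fscn1 UMIs. Aire, the regulator of self-antigen expression, had a UMI in 0, 0, 2 and 5 cells.

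Markers of other lineages were present, in some lists mainly in a single cell and in others over several. In tumour mock 1 cell held all 98 UMIs of the neutrophil list and 1 cell held 123 of the 125 UMIs of the fibroblast list. In TDLN mock 1 cell held 83 of the 114 natural killer UMIs. The T-cell list had 105 UMIs in TDLN NanoCa and 129 in TDLN mock, led by Il7r, and 14 and 10 cells had at least 3 of them. At least 3 macrophage-list UMIs were in 8 tumour NanoCa cells and 4 tumour mock cells, and in 10 cells of TDLN NanoCa and 4 of TDLN mock. In tumour NanoCa and tumour mock the pDC list had 1 and 0 UMIs, the macrophage list 85 and 52, and the carcinoma keratin list 7 and 0. In TDLN NanoCa and TDLN mock they had 147 and 333, 352 and 64, and 3 and 9. Trem2 was at 0 in all 4 libraries, and Trac, the T-cell receptor constant gene, had 1 UMI in each TDLN library and 0 in the tumour. No doublet caller was run, and whether these cells are doublets was not tested. Other-lineage cells below are those with at least 3 UMIs over the T-cell, natural killer, B-cell, plasmacytoid and neutrophil lists together. Values without these other-lineage cells are given where they change a result. Cells marked only by the macrophage, fibroblast, keratin or endothelial lists were not left out.

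Among chemokines, Ccl17, which shares a receptor with Ccl22, stood at 171 CPM in tumour NanoCa, 147 CPM in tumour mock, 91.1 CPM in TDLN NanoCa and 216 CPM in TDLN mock. It rested on single cells in the tumour, where 1 cell held 91.3% of its UMIs in NanoCa and 83.3% in mock. Cxcl16, a ligand for Cxcr6 on resident T cells, was less uneven, at 432, 541, 811 and 727 CPM in the same order of libraries. Il12b, needed for interleukin-12, had 48 UMIs in 8 cells of tumour NanoCa, 24 UMIs in 1 cell of tumour mock, 336 UMIs in 28 cells of TDLN NanoCa and 485 UMIs in 33 cells of TDLN mock. Most cells of each library had no Il12b UMI. Cells with at least 5 UMIs of both Il12b and Ccl22 numbered 2, 0, 11 and 13.

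Costimulatory ligands were present in both tissues. Cd83, a surface marker of maturation, stood at 729 CPM in tumour NanoCa, 737 CPM in tumour mock, 1330 CPM in TDLN NanoCa and 1333 CPM in TDLN mock. Cd80 stood at 164, 197, 147 and 105 CPM and Cd86 at 253, 590, 268 and 174 CPM in the same order. Tumour mock had the highest level of both costimulators, from 8 cells. Icam1, an adhesion ligand for T cells, stood at 149 CPM in tumour NanoCa and 270 CPM in tumour mock, against 703 CPM in TDLN NanoCa and 583 CPM in TDLN mock. Icam1 was lower in both tumour libraries.

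Restraining genes were carried as well. Cd274 (PD-L1) stood at 283 CPM in tumour NanoCa, 319 CPM in tumour mock, 335 CPM in TDLN NanoCa and 208 CPM in TDLN mock. Pdcd1lg2 (PD-L2) stood at 193 and 123 CPM in tumour NanoCa and tumour mock, against 8.16 and 27.0 CPM in TDLN NanoCa and TDLN mock. Cd200, an inhibitory ligand for myeloid cells, stood at 193, 123, 137 and 143 CPM, a narrower range. Ido1, the tryptophan-degrading enzyme, had 8 UMIs in TDLN NanoCa and 0 in the other libraries. Il10 had 1 UMI in all, and Ifnb1, the gene of interferon beta, had 0 in all 4 libraries. At these depths a count of 0 says only that the message was not detected.

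The comparison of NanoCa with mock in TDLN rested on 69 and 68 cells of like depth. Of 3488 genes with at least 50 UMIs, 68 passed as higher in NanoCa (1.95%) and 86 as lower (2.47%), and the median log2 ratio of all of them was -0.02. Most of the mature programme stood level. Of its 38 measured genes none passed as higher and 2 as lower, Ccl17 at -1.24 (-1.68 to -0.82) and Bcl2l14, a Bcl2 family member, at -1.76 (-2.43 to -1.12), and the median was -0.09. The Ccl17 ratio was -0.71 without the top cell of each library, 1 TDLN mock cell holding 42.5% of its UMIs. Ccl22 was at -0.47 (-0.63 to -0.32), Ccl5 at -0.36 (-0.39 to -0.33), Cd40 at -0.10 (-0.29 to 0.10) and Cd83 at 0.00 (-0.13 to 0.13). None of the 18 measured NF-kB genes passed, with a median of 0.10 and Rel, an NF-kB subunit, at 0.72 (0.56 to 0.88).

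Costimulatory ligands and restraining genes moved in single members. Of 11 costimulation genes 1 passed, Cd70, the ligand of the T-cell receptor Cd27, with 21 UMIs in TDLN NanoCa and 69 in TDLN mock and a ratio of -1.70 (-2.48 to -0.98). Of 10 restraint genes Tgfb1, the regulatory cytokine, passed as higher at 1.01 (0.28 to 1.78) and Aldh1a2, the retinoic acid enzyme, as lower at -1.04 (-1.72 to -0.38). The Tgfb1 ratio was 0.01 in cells with at least 5 UMIs each of Ccr7 and Fscn1. Cd274 was at 0.69 (0.39 to 0.99), under the 2-fold limit. Of 10 cytokine and chemokine genes Ccl9 passed as higher at 1.65 (0.84 to 2.53) and Ccl17 as lower.

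**Figure D4:**
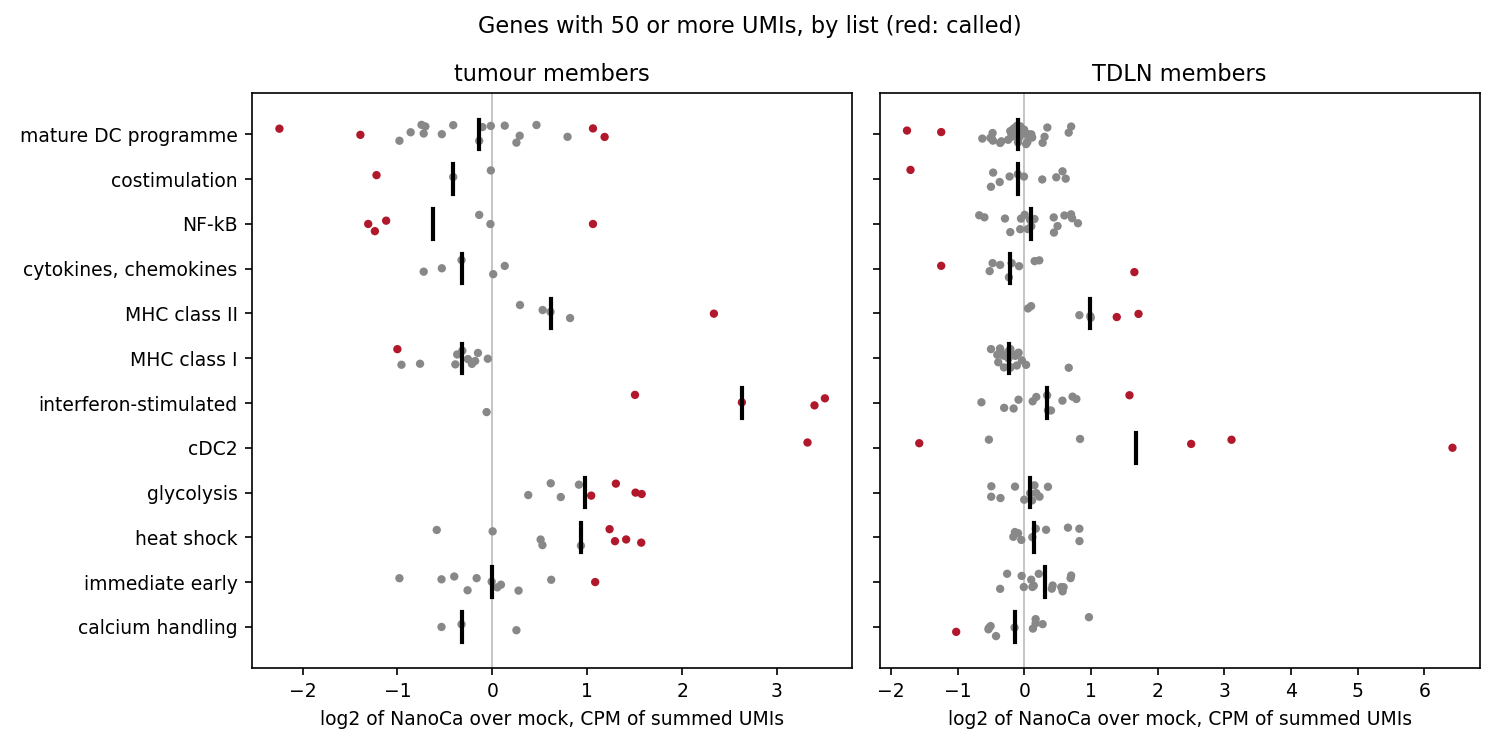
Log2 ratios of NanoCa over mock for the measured genes of each list in tumour (19 and 8 cells) and TDLN (69 and 68 cells); each point is 1 gene, red points passed the rule and black bars are medians of lists with at least 3 genes. The interferon-stimulated list (5 of 46 genes measured) lies highest among tumour lists with 3 or more genes (median 2.63). Most TDLN lists centre near 0, and the MHC class II list lies at 0.99.

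Of 7 measured genes of MHC class II presentation 2 passed as higher in TDLN NanoCa. All 7 had a ratio above 0, with a median of 0.99. H2-Ab1 had 1703 UMIs in TDLN NanoCa and 656 in TDLN mock, a ratio of 1.39 (1.26 to 1.52). H2-DMb2, a chain of the peptide-loading chaperone, had 205 and 63 UMIs, a ratio of 1.71 (1.30 to 2.14). H2-Aa at 0.83 (0.76 to 0.90) and H2-Eb1 at 0.99 (0.89 to 1.09) stayed under 2-fold. The rule selected on Cd74, which class II genes follow, so this list is not free of the gate. T cells of the 2 libraries differed by 0.47 in H2-Ab1, and conventional-type cells by -0.06.

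The H2-Ab1 difference lay in the Ccl5-low cells, which were more numerous and higher in H2-Ab1 in TDLN NanoCa. The median cell had 3 H2-Ab1 UMIs in both TDLN libraries. Cells with at most 3 Ccl5 UMIs held 1368 of the H2-Ab1 UMIs in TDLN NanoCa (14 cells, 9069 CPM) and 299 in TDLN mock (6 cells, 4545 CPM). Cells with at least 50 Ccl5 UMIs, the larger group, had 400 CPM in TDLN NanoCa (51 cells) and 495 CPM in TDLN mock (57 cells). So H2-Ab1 was higher in NanoCa among the 14 and 6 Ccl5-low cells and slightly lower among the Ccl5-high cells. The Ccl5-low cells of the 2 libraries were also of different makeup. Mgl2 stood at 564 CPM in those of TDLN NanoCa and at 0 in those of TDLN mock, and Siglech at 199 and 943 CPM.

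Genes of several dendritic cell subsets passed in TDLN in either direction. Of 6 measured cDC2 genes, Mgl2 (85 UMIs in TDLN NanoCa, 1 in TDLN mock), Cd209a (77 and 9) and Cd209d (45 and 8) passed as higher, at 6.42, 3.11 and 2.50, and Klf4, a factor of cDC2 development, as lower at -1.57 (-2.52 to -0.70). In TDLN NanoCa 1 cell held 66% of the Mgl2 UMIs. The plasmacytoid genes Siglech, Klk1 and Cox6a2 passed as lower, at -1.21, -1.27 and -1.03, each found in 4 to 8 cells per TDLN library. Of 5 cDC1 genes Ppt1 passed as higher and Cadm1 as lower, and of 2 Langerhans genes Il1r2, a decoy interleukin-1 receptor, passed as higher. The Cadm1 UMIs lay in 15 of 69 cells of TDLN NanoCa and 24 of 68 cells of TDLN mock, more cells than held Siglech or Mgl2. The plasmacytoid-marked cells of TDLN mock held 3, 5, 8 and 11 of its 62 Cadm1 UMIs. Without other-lineage cells the ratios of Cadm1 and Cd209d changed sign. That of Ppt1 changed sign in the cells with at least 5 Ccr7 and 5 Fscn1 UMIs, and these values are given below.

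Of 13 measured interferon-stimulated genes 1 passed in TDLN, and the median was 0.34. It was Irf7, the interferon-induced regulator of interferon genes, with 80 UMIs in TDLN NanoCa and 27 in TDLN mock and a ratio of 1.58 (0.93 to 2.26). A single cell of TDLN NanoCa held 61% of its UMIs, and without the top cell of each library the ratio was 0.73. Isg15, a ubiquitin-like interferon product, was at 0.40 (0.04 to 0.76), Ifi27l2a at -0.09 (-0.49 to 0.32) and Bst2 (tetherin) at -0.64 (-0.89 to -0.39). None of the 12 interferon-gamma-induced genes passed (median -0.02), and none of the 21 MHC class I genes (median -0.22). Of 11 calcium-handling genes, listed because the particle carries calcium, Orai1, a store-operated channel subunit, passed as lower at -1.02 (-1.81 to -0.27) on 23 and 47 UMIs. None of the 19 migration, 11 survival, 10 heat-shock, 11 glycolysis and 16 immediate-early genes passed.

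Several of the genes furthest apart in TDLN outside the lists had most of their UMIs in 1 or a few cells. Among those higher in NanoCa, Sct (secretin) had 72 UMIs in TDLN NanoCa, all in 1 cell, and 0 in TDLN mock. Lyz2 (lysozyme) had 262 UMIs in 14 cells and 29 UMIs in 25 cells, a ratio of 3.19, and 2.07 without the top cells. Wfdc17 (75 and 1 UMIs), Ckb, the brain creatine kinase (61 and 3), and Plbd1, a lysosomal phospholipase-like protein (103 and 18), were found in 8 to 12 cells of TDLN NanoCa. Among those lower, Gzma (granzyme A) had 0 UMIs in NanoCa and 53 in mock, 96% of them in the cell with natural killer genes, and Nccrp1 had 0 and 67, in 2 cells. Igfbp4 (5 and 53) and Bambi (5 and 45) had 77% and 87% of the mock UMIs in 1 cell, and without the top cells the Bambi ratio was -0.59. Mucl1 (3 and 144), Serpinb9b (2 and 50), Ly6c2 (17 and 106) and Slc27a3 (6 and 50) were found in 5 to 13 mock cells. A single mock cell held 39.6%, 64%, 50% and 32% of their UMIs, and without the top cells the ratios were -6.43, -4.16, -2.72 and -3.11.

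Of the 68 genes higher in TDLN NanoCa, 10 passed also under 4 further settings, applied 1 at a time. These left out the top cells, left out other-lineage cells, kept cells with at least 5 Ccr7 and 5 Fscn1 UMIs, or used TMM scaling. All 68 passed with TMM scaling, so that setting removed none of them. The macrophage list, which Lyz2 led, was not used to leave cells out. The 10 genes were named after their values were seen. They are H2-Ab1, H2-DMb2, Lyz2, the adhesion molecule Alcam at 1.33 (0.95 to 1.71), the signalling receptor Slamf1 at 1.07 (0.35 to 1.82), the SMAD repressor Skil at 1.07 (0.77 to 1.37), Tob2 at 1.14 (0.72 to 1.58), and Daam1, Rad50 and Hspa2 at 1.27, 1.10 and 1.04. For Lyz2 the stricter gate rested on few cells. Among TDLN NanoCa cells with at least 5 Ccr7 and 5 Fscn1 UMIs, 1 cDC2-marked cell held 150 Lyz2 UMIs and another 20. None of the 10 genes passed as higher in the T cells of the same libraries. Alcam had 209 UMIs in TDLN NanoCa and 84 in TDLN mock and Skil 289 and 139, and without the top cells their ratios were 1.29 and 1.09. Of all 68, 64 were tested in T cells and 1 passed as higher there (1.47% of the 68). Only 0.597% of all 12236 genes tested in T cells passed as higher. At so low a share, none passing among 10 is no sign that these genes are particular to mature DC.

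The genes lower in TDLN NanoCa overlapped those of T cells more. Of the 86, 26 passed as lower in T cells too (30.2% of the 86, and 5.23% of the 497 lower in T cells), where 4.06% of 12236 tested genes passed as lower. Among them were Bri3 at -1.70 in mature DC and -1.39 in T cells, and Tmem160 at -1.75 and -1.85. Rab5if was at -1.10 in mature DC and -0.89 in T cells. In Rhox5-high barcodes of TDLN the same 3 genes were at -1.42, -2.14 and -1.08. They belong to a list of genes that differed between libraries of the series across cell types in earlier results of these data. Of that list 6 genes were measured, 3 passed as lower and the median was -1.01. The list was drawn from these same data, so its values here are no separate evidence. The lower calls thus include genes that were lower in other cells of the library too.

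The comparison of NanoCa with mock in the tumour rested on 19 and 8 cells. In tumour NanoCa 34.2% of the UMIs came from the 2 cDC2-marked cells. Only 485 genes had at least 50 UMIs, of which 43 passed as higher in NanoCa (8.87%) and 26 as lower (5.36%), with a median of 0.09. TMM scaling moved that median to 0.46 and the counts to 96 higher and 11 lower, and median-of-ratios scaling gave 95 and 11. The balance of calls therefore depends on scaling. The mature programme was mixed. Of 19 measured genes Relb, an NF-kB subunit of mature dendritic cells, at 1.06 (0.04 to 2.26) and Il4i1 at 1.18 (0.11 to 2.46) passed as higher, and the protease inhibitor Serpinb9 at -1.39 and Rabgap1l at -2.24 as lower, with a median of -0.14. Ccl22 was at 0.13 (-0.51 to 0.82), Ccl5 at -0.53 (-0.73 to -0.33) and Cd40 at -0.41 (-1.08 to 0.29).

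Interferon-stimulated genes formed the list highest in tumour NanoCa mature DC among those with at least 3 measured genes. Only 5 of the 46 listed genes present in the data had at least 50 UMIs over both libraries. Of these 5 measured genes 4 passed as higher, with a median of 2.63. Tumour NanoCa mature DC held more UMIs than those of tumour mock, so a gene high in NanoCa reached that limit more easily. The median and the rank of the list are thus not free of the limit. Isg15 had 139 UMIs in 12 of 19 cells of tumour NanoCa and 4 UMIs in 2 of 8 cells of tumour mock, a ratio of 3.40 (2.01 to 5.29). Irf7 had 75 and 2 UMIs, a ratio of 3.51 (1.60 to 6.58), Ifi27l2a 184 and 9, a ratio of 2.63 (1.67 to 3.78), and Bst2 103 and 11, a ratio of 1.5 (0.60 to 2.55). The 4 genes that passed stayed above 0 without the top cells, and with each cell thinned to 2000 UMIs the median was 1.20.

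The interferon difference did not extend to the wider set of cells or to other cell types at that size. With no Cd74 minimum (69 and 32 cells) Isg15 stood at -0.24 (-0.58 to 0.11), Bst2 at -0.38 (-0.66 to -0.10) and Ifi27l2a at -0.34 (-0.61 to -0.06), while Irf7 stood at 0.64 (0.13 to 1.17). In tumour T cells the ratios of Isg15, Irf7, Bst2 and Ifi27l2a were 0.55, 0.36, 0.25 and 0.22. In tumour macrophages they were -0.11, 0.45, 0.26 and 0.10, and in conventional-type cells -0.64, 0.24, 0.58 and -0.55. In TDLN mature DC Irf7 passed as higher and Isg15, Bst2 and Ifi27l2a did not pass. The tumour values thus rest on the Cd74-positive cells, of which tumour mock had 8.

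Heat-shock, glycolysis and NF-kB genes held several of the other calls in the tumour. Of 9 heat-shock genes Hspa1a (1.41), Hspa1b (1.29), Dnajb1 (1.24) and Hspd1 (1.57) passed as higher, with a median of 0.93. Hspa1a and Hspa1b passed in tumour T cells too, at 1.19 and 1.17. Of 8 glycolysis genes Tpi1, Pgam1, Eno1 and Pkm passed as higher, at 1.04, 1.57, 1.51 and 1.30. With no Cd74 minimum these 4 and Dnajb1 lay below 0. Of 6 NF-kB genes Relb passed as higher and Nfkb1 (-1.12), Rel (-1.24) and Nfkbib (-1.31) as lower. Of 3 costimulation genes Cd86 passed as lower at -1.22 (-2.02 to -0.40). Of 5 MHC class II genes H2-DMb2 passed as higher at 2.34 (0.71 to 4.66), and the median was 0.61.

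Genes furthest apart in the tumour outside the lists included some that are high in the tumour's other cells. Hmga1, a chromatin protein of growing cells, had 87 UMIs in tumour NanoCa and 1 in tumour mock, and Spp1 (osteopontin) 245 and 12. Ifitm3, an interferon-inducible antiviral protein, had 288 and 26, and the galectin Lgals3 149 and 12. In Rhox5-high barcodes of the tumour libraries Hmga1 stood at 972 CPM (NanoCa) and 827 CPM (mock), and Spp1 at 5211 and 5140 CPM. Mgl2 had 66 and 2 UMIs, 73% of the NanoCa UMIs in 1 cell. Among genes lower in NanoCa, S100a9 (0 and 64 UMIs) came from the tumour mock cell with neutrophil genes. The matrix gene Sparc (19 and 56) had 98% of its mock UMIs in 1 cell, and without the top cells its ratio was 1.77 in place of a value below 0. Lars2, Rabgap1l, Cmss1, Gphn, Malat1 and Lyz2 completed the list of 8, and 81% of the Lars2 mock UMIs were in 1 cell. Iscu, an iron-sulphur cluster scaffold, passed as higher at 2.18, with 2.65 in T cells and 2.38 in macrophages of the same libraries.

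Between tissues, a gene passed only when it did so in the same direction within NanoCa and within mock. Of 1910 genes with enough UMIs in both, 39 passed as higher in the tumour (2.04%) and 49 as lower (2.57%), with a median of -0.11. TMM scaling moved the medians to -0.40 within NanoCa (from -0.13) and to -0.71 within mock (from -0.08), and the counts to 15 higher and 184 lower. With median-of-ratios scaling the counts were 20 and 138. Fewer cells in a state and less message per cell cannot be told apart in these sums. The tumour cells also had a lower median depth, given above, and its part in the result was not tested.

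Part of the mature programme was lower in tumour mature DC. Of its 37 measured genes 9 passed as lower in the tumour, 28 did not pass and none passed as higher, with a median of -1.04. Both other scalings lower every tumour over TDLN ratio, so they are no check on these 9 calls. Of all 49 genes called lower, 17 passed also in the cells with at least 5 Ccr7 and 5 Fscn1 UMIs. Of the 9, only Ccl5, Epsti1 and H2-M2 passed under all 4 further settings named above. Ccl5 stood at 5097 CPM in tumour NanoCa and 7372 CPM in tumour mock, against 23704 CPM in TDLN NanoCa and 30431 CPM in TDLN mock, a ratio of -2.22 within NanoCa and -2.05 within mock. Epsti1 stood at 469 and 786 CPM in the tumour, against 2879 and 3985 CPM in TDLN, at -2.62 and -2.34. H2-M2, a non-classical MHC class I gene of mature dendritic cells, stood at 59.5 and 442 CPM, against 1901 and 2017 CPM, at -5.00 and -2.19. The 2 tumour libraries lay below both TDLN libraries for each of these genes.

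Marcksl1 stood at 1153 and 835 CPM in tumour NanoCa and tumour mock, against 2497 and 2950 CPM in TDLN NanoCa and TDLN mock, and Tmem123 at 1064 and 614 CPM, against 2460 and 2808 CPM. The remaining 4 were Nudt17, Apol7c (0 and 2 UMIs in the tumour, against 241 and 153 in TDLN), Birc3, an NF-kB target that blocks cell death, and the adhesion gene Adam23. Ccl22, Cd40 and Cd83 did not pass, with ratios within NanoCa and within mock of -0.23 and -0.83, -0.23 and 0.09, and -0.87 and -0.85. In cells with at least 5 Ccr7 and 5 Fscn1 UMIs the within-NanoCa ratios of Ccl5, Marcksl1 and Tmem123 were -1.41, -0.54 and -0.52, and that of Epsti1 was -2.81.

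**Figure D5:**
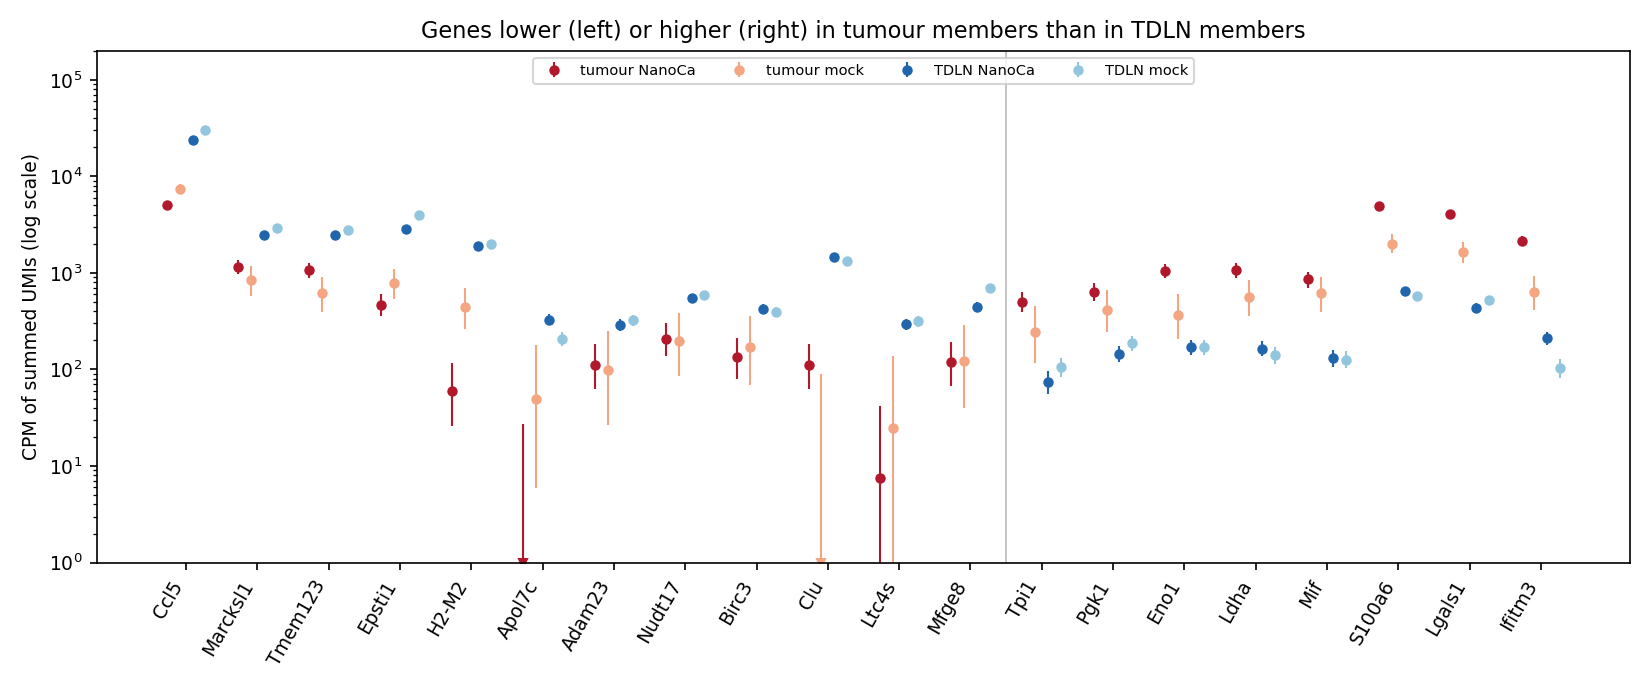
CPM of genes that differ between tumour and TDLN mature DC in the 4 libraries (log axis), with exact Poisson 95% intervals; a triangle at the axis floor marks 0 UMIs (Apol7c in tumour NanoCa, Clu in tumour mock). For genes such as Ccl5 and H2-M2 both tumour points lie below both TDLN points, and for S100a6 and Ifitm3 both lie above.

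Further genes were lower in tumour mature DC, some of them detected there in only a few UMIs. Clu (clusterin, a secreted chaperone) stood at 112 CPM in tumour NanoCa and had 0 UMIs in tumour mock, against 1466 and 1318 CPM in TDLN NanoCa and TDLN mock. Ltc4s, the leukotriene C4 synthase, had 1 UMI in each tumour library, against 215 and 235 in TDLN. Hebp1, a haem-binding protein, stood at 37.2 and 73.7 CPM in the tumour, against 403 and 596 CPM in TDLN, and Mfge8, a bridge to dying cells, at 119 and 123 CPM, against 445 and 696 CPM. Rassf4 stood at 37.2 and 24.6 CPM, against 268 and 305 CPM. Il15, the cytokine that sustains memory T cells, stood at 37.2 and 49.1 CPM, against 211 and 240 CPM, and Icam1 passed as lower too. Ccl4 passed as lower, but 1 or few cells decided it: within NanoCa its ratio was -1.48, and 3.14 without the top cells. The NF-kB targets Tnfaip3 and Birc2 completed the lower calls of that list with Birc3. Of the 49 genes lower in tumour mature DC, 38 were tested in T cells and 1 passed as lower there (2.04% of the 49, 0.469% of the 213 in T cells). Of all 10963 genes tested in T cells 1.94% passed as lower, so the overlap lies near that share.

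Of the 39 genes higher in tumour mature DC, 5 passed under 4 further settings as well. Ifitm3 stood at 2143 CPM in tumour NanoCa and 639 CPM in tumour mock, against 211 and 104 CPM in TDLN NanoCa and TDLN mock. S100a6, a calcium-binding protein, stood at 4918 and 2015 CPM, against 656 and 578 CPM, and S100a10 at 1198 and 1179 CPM, against 199 and 236 CPM. The galectin Lgals1 stood at 4033 and 1646 CPM, against 437 and 524 CPM, and Mif, a macrophage-directed cytokine, at 856 and 614 CPM, against 132 and 127 CPM. These 5 are the ones that passed also without the top cells, without other-lineage cells, in the cells with at least 5 Ccr7 and 5 Fscn1 UMIs, and with TMM scaling, and all 5 passed in T cells.

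In T cells S100a6 differed between tissues by 2.83 within NanoCa and 2.14 within mock, Ifitm3 by 3.30 and 1.94, and Lgals1 by 2.53 and 1.76. In Rhox5-high barcodes of the tumour S100a6 stood at 9356 CPM (NanoCa) and 10096 CPM (mock). Of all 39 genes higher in tumour mature DC, 16 passed as higher in T cells (41.0% of the 39, 1.61% of the 994 in T cells), where 9.07% of 10963 tested genes passed as higher. How much of these levels is free RNA was not tested. Glycolysis genes were among the 39. Of 10 measured, Tpi1, Pgk1, Eno1 and Ldha (lactate dehydrogenase) passed as higher, with a median of 1.31. Ldha stood at 1064 and 565 CPM in the tumour, against 165 and 140 CPM in TDLN, ratios of 2.69 and 2.01, and differed by 0.68 and 0.83 in T cells. Pkib, an inhibitor of protein kinase A, stood at 409 and 835 CPM in tumour NanoCa and tumour mock, against 53.0 and 146 CPM in TDLN NanoCa and TDLN mock. In tumour mock 1 cell held 70.6% of the 34 Pkib UMIs, and the ratio within mock was 2.52, and 1.62 without the top cells. Pkib was at 1.87 to 4.37 CPM in T cells of the 4 libraries and at most 1.76 CPM in Rhox5-high barcodes, so in both tissues it stood above those cells. Ier3 and Egr1, immediate-early genes, passed as higher as well.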

How the data were processed

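Single-cell RNA-seq of 4 mouse libraries, 1 per group, was analysed. The authors deposited raw UMI counts per gene and barcode for 31253 genes, made with Cell Ranger 7.1.0 per the file headers; neither the genome build nor the annotation is given in the sources used here. Barcodes were kept from 200 genes upwards and up to 10% mitochondrial UMIs. Members had at least 1 Ccr7, 1 Fscn1 and 10 Cd74 UMIs, at most 1 UMI over Cd3d, Cd3e and Cd3g, 0 Cd79a, at most 2 over C1qa, C1qb and C1qc, and at most 3 Rhox5. No doublet caller was run. UMIs of members were summed per library and scaled to CPM. Comparison cells were gated on raw UMIs under the same filters: conventional-type cells on Flt3 and Cd74 without Ccr7, Fscn1 and Siglech, macrophages on at least 10 C1q UMIs, T cells on at least 3 Cd3 UMIs, and Rhox5-high barcodes on at least 10 Rhox5 UMIs. Where a library had 0 UMIs of a gene, 3 counts took their place as a floor.

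The members and the 32 gene lists were chosen with earlier results of these data known. Besides list genes, the text names 8 passing genes per direction in each comparison. They were the first by the interval bound closest to no difference, and had to reach 50 CPM in 1 library or more. Mitochondrial, ribosomal, haemoglobin, immunoglobulin, T-cell receptor variable, Gm-, Rik-, Xist and Y-linked genes were left out of that ranking. The call rule was tested on simulated counts with known changes, which is no test of the samples. Python 3.11.15 (numpy 2.4.6, scipy 1.17.1, pandas 2.3.3) and R 4.3.3 (edgeR 4.0.16, for TMM factors only) were used. The 17 alternatives covered the gate, depth, scaling, call limits and left-out cells. No Cd74 minimum, at least 5 Ccr7 and 5 Fscn1 UMIs, and leaving out the top member of each gene were chosen after seeing the data.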

Additional observations from a re-analysis of the deposited data

Results flagged for a closer look

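Of the genes named, 3 passed in opposite directions in the tissues when NanoCa was set against mock, and the difference between tissues was not tested. Spp1 (osteopontin) was at 2.63 in tumour mature DC and at -1.57 in TDLN mature DC (log2). In T cells of the same tissues it was at 0.36 and -1.58. It is most abundant in Rhox5-high barcodes, at 3547 to 5211 CPM in the 4 libraries. Lyz2 (lysozyme) was at -2.35 in the tumour and at 3.19 in TDLN, and 0.52 and 2.89 in cells with at least 5 Ccr7 and 5 Fscn1 UMIs. In TDLN NanoCa 1 cDC2-marked cell held 150 of the Lyz2 UMIs under that gate and another 20. Ctsl (cathepsin L) was at 1.76 in the tumour and at -1.30 in TDLN, and -0.58 and -1.42 in cells with at least 5 Ccr7 and 5 Fscn1 UMIs.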

How the results depend on the processing

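With 1 library per group no replicate could be left out. No paired analysis was possible because each group holds 1 library. Under the 10 alternatives for the shares, the tumour ratio lay between 0.29 and 1.53 and the TDLN ratio between -0.29 and 0.07. The counts of passing genes were less stable, and the causes were not tested unless the alternative itself shows them (fewer UMIs, other limits, fewer cells). Tumour NanoCa over mock, higher (43) and lower (26): TMM 96 and 11, median-of-ratios 95 and 11, at least 10 UMIs 78 and 142, at least 200 UMIs 6 and 4, 1.5-fold 76 and 46, thinned cells 8 and 6, at least 5 Ccr7 and 5 Fscn1 UMIs 18 and 16. No Cd74 minimum gave 98 higher. The lower count was 14 without other-lineage cells, 11 without deep cells and 5 without the top cells. TDLN NanoCa over mock, higher (68) and lower (86): at least 10 UMIs 244 and 298, at least 200 UMIs 11 and 7, 1.5-fold 225 and 235, thinned cells 16 and 12. The higher count was 42 without the top cells, and the lower count 44 without other-lineage cells. Tumour over TDLN, higher (39) and lower (49): TMM 15 and 184, median-of-ratios 20 and 138, at least 200 UMIs 7 and 32, thinned cells 7 and 18, at least 20 Cd74 UMIs 12 and 25, no Cd74 minimum 271 and 383, without the top cells 16 and 82. The higher count was 102 at 10 UMIs and 21 without other-lineage cells, and the lower count 93 at 1.5-fold and 23 at 5 Ccr7 and 5 Fscn1 UMIs.

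Of the values recomputed for named genes, 1258 stayed within the interval of the reported ratio. The rest left it: 38 changed sign, 106 no longer passed, 18 passed where the reported ratio did not, and 234 moved in other ways. Those that changed sign are as follows. In the tumour with no Cd74 minimum Isg15 was -0.24, Bst2 -0.38, Ifi27l2a -0.34, Ifitm3 -0.22, Lgals3 -0.67, Dnajb1 -0.59, Tpi1 -0.40, Pgam1 -0.44, Eno1 -0.20, Pkm -0.46, Rabgap1l 0.25, Nfkb1 0.61 and Malat1 0.082. At 5 Ccr7 and 5 Fscn1 UMIs Pgam1 was -0.26, Lyz2 0.52, Ctsl -0.58 and Sparc 0.94. Without deep cells Mgl2 was -0.98 and Ctsl -0.61. Sparc was 1.73 without other-lineage cells, 0.26 at 20 Cd74 UMIs and 1.77 without the top cells. In TDLN without other-lineage cells Cd209d was -0.013, Gzma 1.57, Bambi 0.57 and Cadm1 0.075. Gzma was 1.57 at 20 Cd74 UMIs and 0.60 without the top cells. Spp1 was 0.077 at 5 Cd74 UMIs, Ctsl 0.24 and Ppt1 -1.02 in thinned cells, and Ppt1 -0.037 at 5 Ccr7 and 5 Fscn1 UMIs. Between tissues, Ccl4 was 3.29 (NanoCa) and 3.21 (mock) without other-lineage cells, 2.61 and 1.03 at 5 Ccr7 and 5 Fscn1 UMIs, and 3.14 within NanoCa without the top cells. Eno1 within mock was -0.25 at 5 Ccr7 and 5 Fscn1 UMIs.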

Other observations

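In TDLN the barcodes that failed by Cd74 alone (67 in TDLN NanoCa, 68 in TDLN mock) had lower Ccl5 levels than the cells inside the rule. The level was 16277 CPM in NanoCa and 21353 CPM in mock, against 23704 and 30431 CPM inside it.

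The intermediate Ccl5 class of TDLN (4 to 49 UMIs), 4 cells in NanoCa and 5 in mock, stood apart in Ccl22, the T-cell attracting chemokine. Ccl22 was at 234 CPM in NanoCa and at 3828 CPM in mock in that class, and Cd40 at 205 and 1086 CPM. These are single libraries with a handful of cells, given as values.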
